A study of Arabidopsis thaliana with 36 samples.

Results

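The WRKY, MYB, NAC, ERF, bZIP and IAA regulators are the probe sets whose single gene symbol in the platform annotation is one of these family names followed by a number, with case ignored. The rule found 28 of the 22746 probe sets tested, each for a different gene, of 13356 genes named by probe sets with 1 gene: 14 bZIP, 7 IAA, 6 WRKY and 1 NAC. It found 0 for MYB and 0 for ERF, so both families go undescribed. Kas-1 and Tsu-1, a pair of natural accessions of Arabidopsis thaliana called Kas and Tsu here, were grown in hydroponics and moved at the age of 24 d to medium without iron or kept on complete medium, in which Fe(III)-EDDHA supplied iron at 50 µM. Roots and shoots were profiled on Affymetrix arrays after 24 h and 48 h without iron, and after 24 h on complete medium, with 3 arrays in each of 12 groups. The complete-medium plants were sampled at 24 h, and the same arrays serve as the controls for both times. The protocol in the labels describes RNA from whole rosettes, also for the arrays labelled as roots, and does not say how many plants went into a sample.

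WRKY proteins are plant transcription factors that bind the W-box and act in defence, senescence and nutrient starvation. bZIP proteins bind DNA as dimers, and members of the family act in zinc supply, in the unfolded protein response of the endoplasmic reticulum, and in sugar and amino acid metabolism. IAA (Aux/IAA) proteins are repressors of auxin-responsive genes, most of which are degraded when auxin is perceived, and NAC proteins include regulators of senescence and stress.

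The values are deposited log2 expression values, and a level is given on that scale throughout. There are no detection calls, so whether a low value lies above background is not known. The lower quartile of an array ran from 2.72 to 3.05, and no fold is given against values near it. Array medians ran from 4.91 to 5.14. Root markers (4 probe sets, among them EXPA7 and EXPA18 of root hairs) averaged 7.92 to 9.06 on arrays labelled roots and 3.57 to 4.24 on arrays labelled shoots. The photosystem I gene PSAN read 3.34 to 5.31 in roots and 11.52 to 12.14 in shoots, so both tissue labels matched their markers.

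Some arrays stood between the ecotypes. An index from 82 probe sets that differed by at least 2 on the log2 scale between the ecotypes in both tissues at 48 h, none of them a regulator described here, was set to 1 for Kas and 0 for Tsu at 48 h without iron. It averaged 0.54 ± 0.05 in Tsu shoots after 24 h without iron, 0.58 ± 0.10 in Tsu roots after 24 h without iron and 0.29 ± 0.15 in Tsu roots on complete medium (SD, n = 3 each). In Kas roots it spanned 0.53 to 1.05 after 24 h without iron and 0.52 to 0.98 on complete medium. The mean index of the 4 groups at 48 h is fixed at 1 or 0 by its construction. In the other 3 groups, all of shoots, it was 0.98 to 0.99 in Kas shoots after 24 h without iron, at least 0.99 in Kas shoots on complete medium and 0.02 to 0.05 in Tsu shoots on complete medium. All arrays of Tsu shoots and Tsu roots after 24 h without iron were intermediate, so results at that time in Tsu have no value without them. Leaving out 1 array keeps the others of such a group, so a call that holds then has not been checked against the index. In roots, leaving out the arrays between the ecotypes (index 0.25 to 0.75) keeps 1 complete-medium array of each ecotype, which the fit assumes to vary like the other groups.

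Over the 12 groups, 10 of the 28 regulators stayed below the array median on all 36 arrays (IAA20, IAA30, IAA31, IAA33, IAA34, BZIP24, WRKY42, bZIP42, bZIP43 and bZIP48), and 9 stayed above it. BZIP53, a sucrose-controlled factor of the S1 subgroup that activates amino acid catabolism genes, had group means from 8.19 to 9.58. bZIP19, which with its partner senses zinc deficiency, ranged from 7.17 to 8.57. IAA20, IAA30, IAA31, IAA33 and IAA34, in which the usual degradation motif of the family is missing or altered, stayed between 2.08 and 3.70 in every group mean. Tsu shoots on complete medium held the lowest group mean for 8 regulators, the most of the 12 groups, and the highest for 5. Kas roots on complete medium held the highest for 6. These counts were not made for all probe sets, so they do not set the regulators apart.

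**Figure D1:**
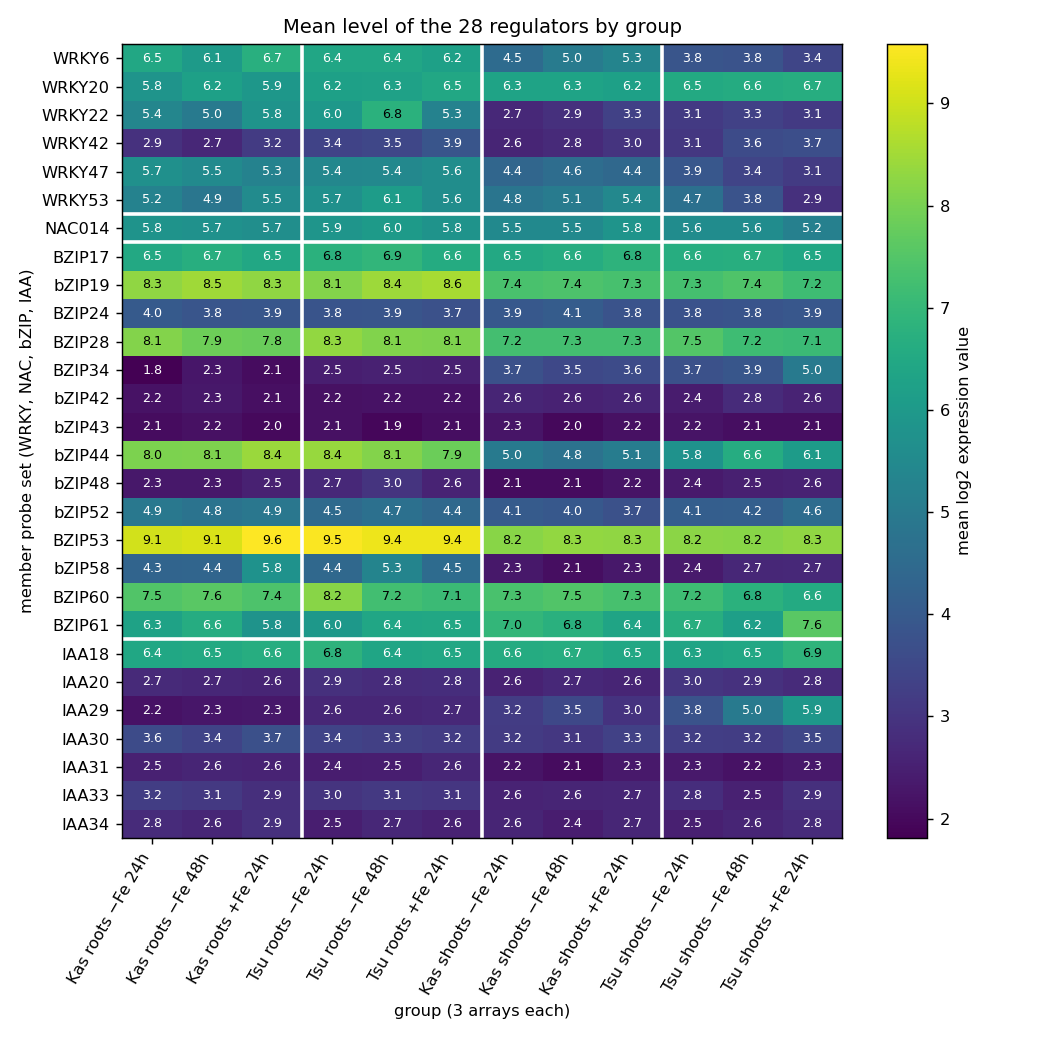
Mean log2 expression value (colour and printed number) of the 28 regulators (rows, by family) in the 12 groups (columns, 3 arrays each). bZIP44 and WRKY22 are brighter in root columns, and IAA29 is brightest in Tsu shoots on complete medium at 5.93.

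A limma fit over all probe sets, with Benjamini-Hochberg adjusted p below 0.05 as the threshold, called 16 of the 28 regulators in at least 1 of the 8 comparisons of medium without iron against complete medium, where 30.8% of all probe sets were called at least once. There were 26 such calls, 6 in Kas and 20 in Tsu. Of the Tsu calls, 11 came from shoots at 24 h, where 16.1% of all probe sets were called. The shares of all probe sets in the other comparisons follow. Of the 26 calls, 7 had a log2 difference of at least 1 in size, which was not counted for all probe sets. In Kas roots the test called 1 regulator at 24 h, where 1.94% of all probe sets were called, and 4 at 48 h, where 6.73% were. In Tsu roots it called 3 at 24 h, beside 6.98% of all probe sets, and 1 at 48 h, beside 1.62%. In Kas shoots it called 1 at 24 h (1.86% of all probe sets) and limma called 0 at 48 h (4.11%), where 4 regulators had an unadjusted p below 0.05 and 1 was called once dim probe sets were left out. In Tsu shoots it called 11 at 24 h and 5 at 48 h, against 16.1% and 4.34% of all probe sets. With 28 members, 1 call is 3.57%, so the counts of 1 lie near the background. The median size of the log2 difference was larger for the regulators than for all probe sets in 5 of these 8 comparisons, with 0.27 and 0.16 in Tsu shoots at 24 h, 0.21 and 0.13 in Tsu shoots at 48 h, 0.21 and 0.13 in Kas shoots at 48 h, 0.17 and 0.14 in Kas roots at 24 h and 0.22 and 0.19 in Kas roots at 48 h. It was smaller in the other 3, with 0.16 and 0.19 in Tsu roots at 24 h, 0.14 and 0.16 in Tsu roots at 48 h and 0.11 and 0.12 in Kas shoots at 24 h.

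**Figure D2:**
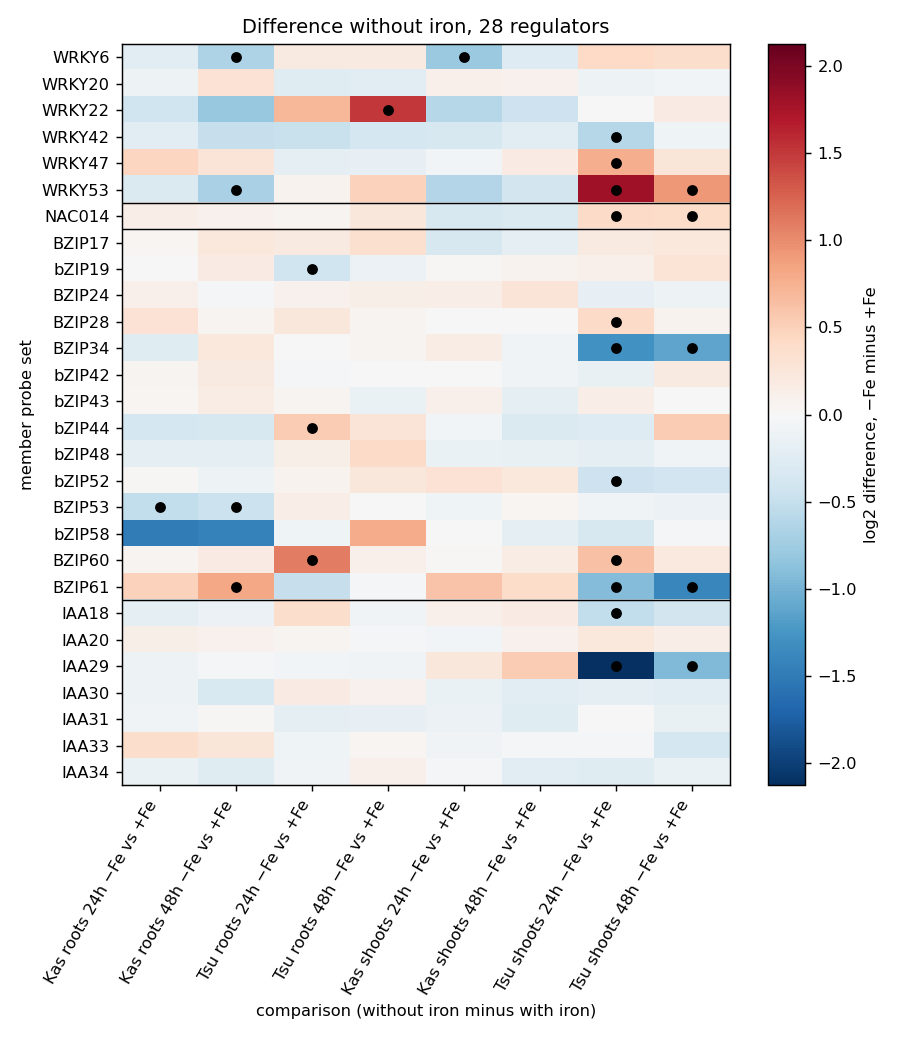
Log2 difference of medium without iron minus complete medium (colour) for the 28 regulators (rows) in 8 comparisons (columns), with a black dot where the adjusted p was below 0.05. Most dots lie in Tsu shoots at 24 h (11), and Kas shoots at 48 h have none.

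The change without iron also differed between the ecotypes for some regulators, tested as an interaction term (the Kas change minus the Tsu change). It was called for 3 regulators in roots at 24 h (5.04% of all probe sets), 4 in roots at 48 h (7.94%), 10 in shoots at 24 h (11.2%) and 6 in shoots at 48 h (3.94%). Leaving out 1 array ended 8 of these 23 interactions: BZIP53 in roots at 24 h, WRKY6 and bZIP58 in roots at 48 h, WRKY47 and BZIP60 in shoots at 24 h, and WRKY53, BZIP34 and bZIP44 in shoots at 48 h, with adjusted p up to 0.121 (bZIP58).

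WRKY22, which acts in defence signalling downstream of flagellin, gave the largest WRKY rise in roots. It read 6.98, 6.42 and 6.92 in Tsu roots after 48 h without iron, against 5.45, 4.58 and 5.76 in Tsu roots on complete medium. Every array without iron was above every control array, and the gene rose 2.85-fold (log2 difference 1.51 ± 0.23 SE, adjusted p = 0.00369). In Kas roots it read 5.04, 4.99 and 4.97 after 48 h without iron, against 5.79, 5.62 and 5.99 on complete medium, a log2 difference of -0.80 that just missed the threshold (adjusted p = 0.0504, and 0.0324 with the replicate block). The groups did not overlap in either ecotype, and the 2 changes differed by -2.31 ± 0.33 log2 (interaction adjusted p = 0.0016). The Tsu call held without any 1 array (highest adjusted p 0.0351). It was lost in the fit of only the arrays compared (adjusted p = 0.1745). Without the arrays between the ecotypes the Tsu difference was 2.20, against the 1 control array left, which at 4.58 is the lowest of the 3.

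WRKY6, a regulator of senescence and of the phosphate starvation response, fell in Kas. It read 6.27, 6.01 and 5.90 in Kas roots after 48 h without iron, against 6.99, 6.46 and 6.67 on complete medium. No array without iron reached the controls, and the gene fell by 0.65 on the log2 scale (SE 0.14, adjusted p = 0.0119). In Kas shoots after 24 h without iron it read 4.65, 4.09 and 4.83, against 5.24, 5.56 and 5.14 on complete medium, again without overlap (log2 difference -0.79 ± 0.19, adjusted p = 0.0336). In Tsu, WRKY6 was called in no iron comparison, and the interaction was -0.84 in roots at 48 h (adjusted p = 0.0193) and -1.22 in shoots at 24 h (adjusted p = 0.00419). The root call was lost without complete-medium replicate 1 or 48 h replicate 3 (adjusted p 0.0592 to 0.0628), and in the fit of only the arrays compared (0.0725). The shoot call was lost without any of the 3 control arrays or the 24 h replicates 1 or 2 (0.0537 to 0.18), and in the fit of only the arrays compared (0.0634).

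WRKY53, an early regulator of leaf senescence, rose in Tsu shoots and fell in Kas roots. It read 4.85, 4.61 and 4.62 in Tsu shoots after 24 h without iron and 3.24, 4.05 and 4.12 after 48 h, against 3.33, 2.72 and 2.61 in Tsu shoots on complete medium. The 24 h arrays were all above the controls, while at 48 h 1 array lay within the control range. The log2 difference was 1.81 ± 0.21 at 24 h (adjusted p = 3.66e-06) and 0.92 ± 0.21 at 48 h (adjusted p = 0.0175), against controls near the lower quartile of the arrays. In Kas roots WRKY53 fell at 48 h, with 4.73, 4.70 and 5.12 without iron, against 5.50, 5.35 and 5.79 on complete medium (log2 difference -0.70 ± 0.18, adjusted p = 0.0281). In Kas shoots the differences were -0.63 at 24 h and -0.39 at 48 h, both short of the threshold. The interaction was -2.43 ± 0.30 in shoots at 24 h (adjusted p = 1.5e-05), -1.31 in shoots at 48 h (0.0183) and -1.18 in roots at 48 h (0.012).

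The WRKY53 rise in Tsu shoots at 24 h held without any 1 array. The 48 h call was lost without complete-medium replicates 2 or 3 or 48 h replicate 2 (adjusted p 0.0687 to 0.091), and the interaction at 48 h without Tsu complete-medium replicate 3 (0.0511). The Kas root call was lost without complete-medium replicates 1 or 3 or 48 h replicates 1 or 2 (0.0674 to 0.15), and also without the arrays between the ecotypes (0.0862, with 1 control array left). The covariate fit on the index lost it as well (0.126), and there the root interaction at 48 h was -0.82 (adjusted p = 0.131). In the fit of only the arrays compared, the 48 h call in Tsu shoots (0.144) and the Kas root call (0.0593) were lost.

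Among the other WRKY genes, WRKY47 rose and WRKY42, which acts in phosphate uptake, fell in Tsu shoots at 24 h. WRKY47 read 3.95, 4.06 and 3.75 without iron, against 3.09, 3.26 and 3.10 on complete medium (log2 difference 0.77 ± 0.18, adjusted p = 0.00422). WRKY42 read 3.19, 3.08 and 2.96 without iron, against 3.62, 3.69 and 3.74 (-0.61 ± 0.13, adjusted p = 0.00198). Neither pair of groups overlapped, and both calls held without any 1 array. The WRKY47 controls and the WRKY42 values without iron lay near the lower quartile of the arrays. WRKY20 was called in no iron comparison.

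STZ, a zinc-finger stress regulator outside these families, fell by 2.39 on the log2 scale in Kas roots at 24 h, where no WRKY gene was called, and by 2.52 at 48 h, where WRKY6 and WRKY53 fell. It rose by 1.22 in Tsu shoots at 24 h, where WRKY47 and WRKY53 rose and WRKY42 fell, and by 0.77 at 48 h, where WRKY53 rose. It was not called in Tsu roots at 24 h (0.17) or at 48 h (-0.16), where WRKY22 rose, nor in Kas shoots (-0.54 at 24 h and 0.49 at 48 h). The STZ controls in Tsu roots lay far apart, at 8.50, 7.92 and 5.85, so the differences there are imprecise. The 25S ribosomal RNA control read 5.21 to 6.91 in Kas roots after 48 h without iron and 9.82 to 10.73 in Kas roots on complete medium. The part of either in the WRKY differences was not tested.

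**Figure D3:**
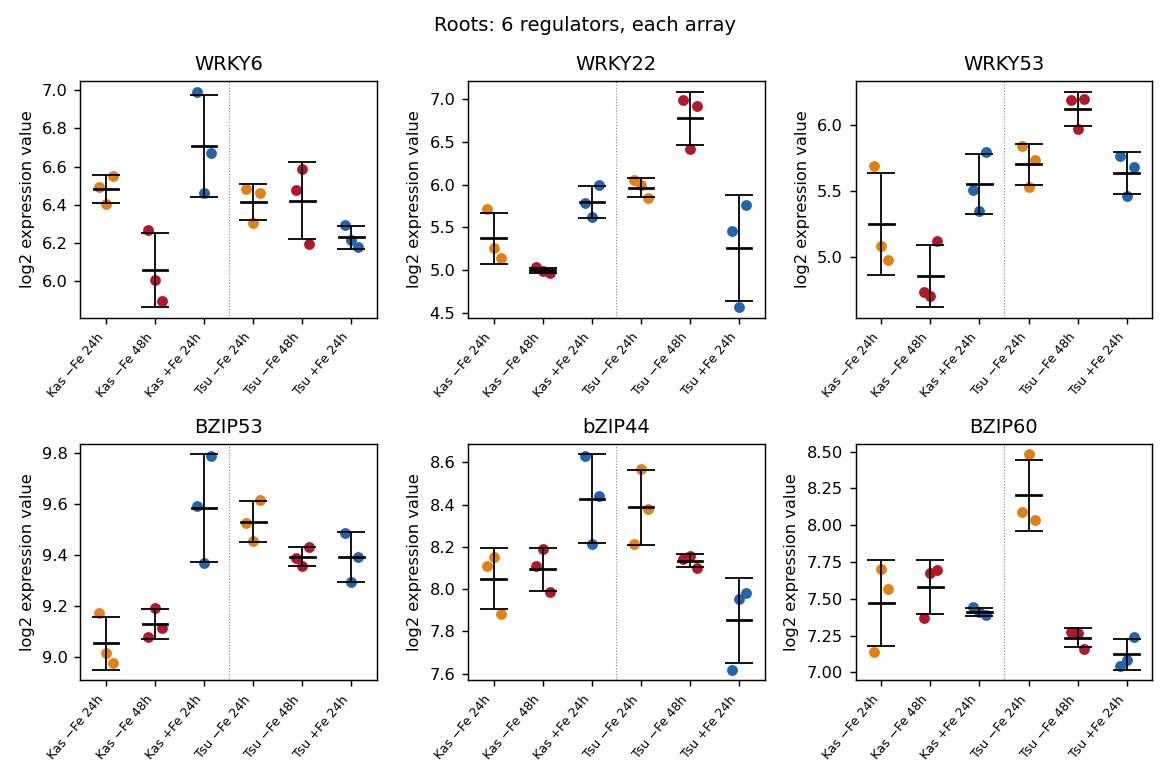
Log2 expression value of 6 regulators on each root array (points), with the group mean and SD (bars), by ecotype and medium. WRKY22 is highest in Tsu roots at 48 h without iron (6.42 to 6.98), and BZIP60 in Tsu roots at 24 h without iron (8.04 to 8.48).

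NAC014, a membrane-bound NAC factor, rose in Tsu shoots at both times. It read 5.71, 5.56 and 5.52 after 24 h without iron and 5.50, 5.59 and 5.64 after 48 h, against a mean of 5.19 ± 0.16 in Tsu shoots on complete medium (SD, n = 3), with the highest control array at 5.30. No array without iron overlapped the controls, and the log2 differences were 0.41 ± 0.10 (adjusted p = 0.00813) and 0.39 ± 0.10 (adjusted p = 0.0359). In Kas shoots the differences were -0.33 and -0.31, not called, and the interaction was -0.75 at 24 h (adjusted p = 0.00167) and -0.71 at 48 h (0.0102). The 24 h call was lost without complete-medium replicate 1 (0.058). The 48 h call was lost without complete-medium replicates 1 or 2 or any of the 48 h arrays (0.0554 to 0.165), and with the replicate block (0.0555). The fit of only the arrays compared lost it too (0.233).

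Of the bZIP genes of the unfolded protein response, BZIP60, whose messenger RNA is spliced by IRE1, rose in Tsu. It read 8.09, 8.48 and 8.04 in Tsu roots after 24 h without iron, against 7.04, 7.09 and 7.24 on complete medium. The groups were far apart, a 2.11-fold rise (log2 difference 1.08 ± 0.15, adjusted p = 0.00026) that held without any 1 array. The ecotype index of these arrays was 0.50 to 0.68, against 0.13 to 0.42 in the controls. These groups therefore do not separate iron supply from the index, which also holds for bZIP44 and bZIP19 below. With the index as covariate the BZIP60 difference was 0.90 (adjusted p = 0.00337). At 48 h in Tsu roots BZIP60 read 7.28, 7.27 and 7.16, close to the controls. In Kas roots at 24 h the difference was 0.06, and the interaction was -1.02 ± 0.21 (adjusted p = 0.0103). In Tsu shoots BZIP60 rose at 24 h, with 7.10, 7.20 and 7.25 without iron, against 6.72, 6.36 and 6.60 on complete medium (0.62 ± 0.12, adjusted p = 0.000808).

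BZIP28, a membrane-anchored sensor of the same response, rose in Tsu shoots at 24 h. It read 7.38, 7.64 and 7.51 without iron, against 7.11, 7.08 and 7.10 on complete medium, without overlap (log2 difference 0.41 ± 0.10, adjusted p = 0.00644). BZIP17, the other membrane-anchored member, was called in no iron comparison. Both shoot calls, of BZIP60 and BZIP28, held without any 1 array.

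In the S1 subgroup, whose translation is repressed by sucrose, BZIP53 fell in Kas roots and bZIP44 rose in Tsu roots. BZIP53 read 9.17, 9.02 and 8.98 after 24 h and 9.08, 9.19 and 9.11 after 48 h without iron in Kas roots, against 9.59, 9.37 and 9.79 on complete medium. Neither time overlapped the controls, and the gene fell by 0.53 on the log2 scale at 24 h (adjusted p = 0.0269) and by 0.45 at 48 h (adjusted p = 0.024). bZIP44 read 8.21, 8.57 and 8.38 in Tsu roots after 24 h without iron, against 7.62, 7.95 and 7.98 on complete medium, without overlap (log2 difference 0.53 ± 0.14, adjusted p = 0.0262). The interaction in roots at 24 h was -0.67 for BZIP53 (adjusted p = 0.0237) and -0.91 for bZIP44 (adjusted p = 0.0121).

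The BZIP53 call at 24 h was lost without complete-medium replicates 1 or 3 or 24 h replicates 2 or 3 (adjusted p 0.119 to 0.166). Its 48 h call was lost without complete-medium replicates 1 or 3 or 48 h replicates 1 or 3 (0.0708 to 0.144). Without the arrays between the ecotypes, which leaves 1 control array, the BZIP53 differences were -0.60 at 24 h (adjusted p = 0.0682) and -0.46 at 48 h (0.114). With the index as covariate its 48 h call was lost too (0.0775). The bZIP44 call was lost without complete-medium replicate 1 or 24 h replicates 2 or 3 (0.0649 to 0.153), and with the index as a covariate (0.148). In the fit of only the arrays compared, the BZIP53 calls at 24 h (0.198) and 48 h (0.105) and the bZIP44 call (0.116) were lost.

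bZIP19 fell in Tsu roots at 24 h. It read 8.12, 7.99 and 8.30 without iron, against 8.58, 8.68 and 8.44 on complete medium. The groups did not overlap (log2 difference -0.43 ± 0.12, adjusted p = 0.0325), and the call was lost without complete-medium replicates 1 or 2 or 24 h replicates 1 or 2 (0.0581 to 0.176) and with the index as a covariate (0.205). The fit of only the arrays compared lost it too (0.138). BZIP24, a related group F gene that acts in the salt response, was called in none of the 16 comparisons.

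BZIP34, which acts in pollen development, and its close homolog BZIP61 both fell in Tsu shoots. BZIP34 read 3.45, 4.08 and 3.68 after 24 h without iron and 3.79, 3.44 and 4.45 after 48 h, against 5.07, 4.88 and 5.10 in Tsu shoots on complete medium. Every array without iron was below the controls at both times, with log2 differences of -1.28 ± 0.19 (adjusted p = 6.84e-05) and -1.13 ± 0.19 (adjusted p = 0.00191). BZIP61 read 6.75, 6.82 and 6.44 after 24 h and 5.86, 5.68 and 7.08 after 48 h, against 7.51, 7.41 and 7.84 on complete medium. It too did not overlap the controls, with differences of -0.91 ± 0.23 (adjusted p = 0.0093) and -1.38 ± 0.23 (adjusted p = 0.00184). At 48 h, 1 array stood well above its 2 replicates for both genes.

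Both 48 h calls held without any 1 array (highest adjusted p 0.0141 for BZIP34 and 0.0176 for BZIP61), as did that of BZIP34 at 24 h. The 48 h call of BZIP61 was lost in the fit of only the arrays compared (adjusted p = 0.0781). The 24 h call of BZIP61 was lost without complete-medium or 24 h replicate 3 (0.0508 to 0.0522). In Kas shoots neither gene was called, and the interaction was 1.44 and 1.05 for BZIP34 (adjusted p = 0.00112 at 24 h and 0.0339 at 48 h, the second 0.0921 with the index as covariate) and 1.51 and 1.77 for BZIP61 (0.00407 and 0.00468). In Kas roots BZIP61 rose at 48 h, with 6.79, 6.35 and 6.73 without iron, against 5.25, 6.38 and 5.79 on complete medium, and the groups overlapped (0.81 ± 0.24, adjusted p = 0.0489). That call was lost without 5 of the 6 arrays, each except complete-medium replicate 2 (0.0566 to 0.206), with the difference as low as 0.54, and with the replicate block (0.0625). The fit of only the arrays compared lost it too (0.127). Without the arrays between the ecotypes the difference was 1.37, against the 1 control array left, which is the lowest of the 3.

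bZIP52 fell in Tsu shoots at 24 h, with 4.04, 4.20 and 4.15 without iron, against 4.49, 4.56 and 4.66 on complete medium (log2 difference -0.44 ± 0.13, adjusted p = 0.0204). The groups did not overlap, and the call was lost without complete-medium replicate 3 or 24 h replicate 1 (0.0768 to 0.0778). bZIP58 had the largest SD of the 28 regulators in any group, 1.36 in Kas roots on complete medium, where it read 6.82, 4.24 and 6.29. Its differences of -1.48 at 24 h and -1.43 at 48 h in Kas roots were not called, while the interaction in roots at 48 h was -2.22 ± 0.65 (adjusted p = 0.0468, and 0.0696 with the index as covariate). Leaving out 1 array moved that interaction between -2.99 and -1.70.

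IAA29, an Aux/IAA gene induced by shade and by phytochrome-interacting factors, fell the most of the 28 in any iron comparison. It read 4.27, 3.42 and 3.73 in Tsu shoots after 24 h without iron and 4.74, 4.88 and 5.35 after 48 h, against 6.07, 5.82 and 5.91 on complete medium. No array without iron reached the controls, and it was 4.36-fold lower at 24 h (log2 difference -2.13 ± 0.21, adjusted p = 3.54e-07) and 1.92-fold lower at 48 h (-0.94 ± 0.21, adjusted p = 0.0136). In Kas shoots it read 3.18, 3.25 and 3.15 after 24 h and 3.57, 3.03 and 3.92 after 48 h without iron, against 2.79 to 3.09 on complete medium, with differences of 0.23 and 0.55 that were not called. The interaction was 2.36 ± 0.29 at 24 h (adjusted p = 1.71e-05) and 1.49 ± 0.29 at 48 h (adjusted p = 0.00737). The Kas controls lay near the lower quartile of the arrays, so a fall in Kas could hardly be seen. The interaction therefore does not separate a different response from a lower starting level. The 24 h call held without any 1 array. The 48 h call was lost without complete-medium replicate 1 or 48 h replicates 1 or 2 (0.0589 to 0.0813).

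IAA18, another Aux/IAA repressor, fell in Tsu shoots at 24 h. It read 6.25, 6.44 and 6.34 without iron, against 6.84, 6.66 and 7.07 on complete medium, without overlap (log2 difference -0.52 ± 0.11, adjusted p = 0.00332). The call held without any 1 array. The other 5 IAA genes, the ones with a missing or altered degradation motif, were called in none of the 8 iron comparisons. Of 3 auxin-conjugating GH3 genes, WES1 fell in Kas roots at 48 h (log2 difference -0.76) and in Kas shoots at 24 h (-1.15) and rose in Tsu roots at 48 h (0.98), and GH3.3 fell in Tsu shoots at 24 h (-0.58).

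The results in Tsu shoots at 24 h rest on arrays whose ecotype index, at 0.51 to 0.60, lay far from the 0.02 to 0.05 of the Tsu shoots on complete medium. With the index as a covariate, none of the 11 calls in that comparison and none of the 10 interactions in shoots at 24 h passed the threshold in limma. Within the shoot groups the index varied little (SD 0.005 to 0.05), and the slope of the covariate rests on that spread. The fitted differences are therefore imprecise and do not sort the 11 genes. They were -2.98 for BZIP34, -1.22 for WRKY42, -1.12 for IAA18, -1.02 for BZIP61, -0.41 for bZIP52, 0.89 for NAC014, 0.53 for BZIP60 and 0.69 for WRKY53. IAA29, WRKY47 and BZIP28 changed sign. The loss of a call there does not show what part of a difference goes with the index. Iron supply and the index cannot be told apart there. Calls there that held without any 1 array were not checked for this. Each of the 11 differences had the sign of the Kas minus Tsu difference in shoots on complete medium. Both comparisons use the same Tsu complete-medium arrays, so a shared sign is built in to a degree. BZIP28 was not called between the ecotypes in shoots. How often the signs match among all called probe sets was not counted, so this does not set the regulators apart. The mean of IAA29 went from 5.93 to 3.81, with Kas shoots on complete medium at 2.96. That of WRKY53 went from 2.89 to 4.69, with Kas at 5.45. IAA18 and BZIP28 passed the Kas mean. At 48 h the Tsu shoot arrays had an index of -0.01 to 0.02, close to that of the controls. The covariate has little to adjust there, so a call that stays has passed no real check. With it 4 of the 5 calls (WRKY53, IAA29, BZIP34 and BZIP61) stayed. NAC014, at 0.36 with and 0.39 without the covariate, did not pass (adjusted p = 0.107).

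**Figure D4:**
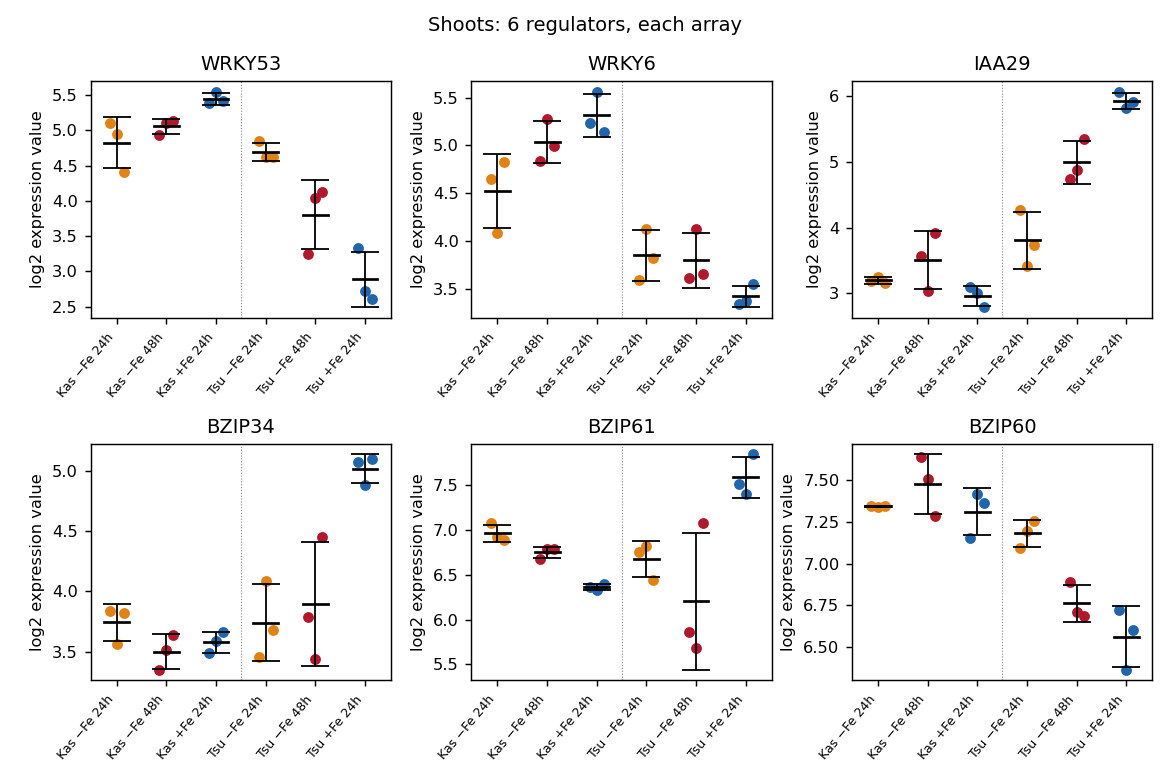
Log2 expression value of 6 regulators on each shoot array (points), with the group mean and SD (bars), by ecotype and medium. In Tsu, WRKY53 is higher and IAA29, BZIP34 and BZIP61 are lower without iron than on complete medium.

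The ecotypes were also compared on complete medium, with the Tsu arrays that serve as controls above. In shoots 14 of the 28 regulators differed, where 33.2% of all probe sets were called. Of these, 6 were higher in Kas (13.2% of all probe sets) and 8 were lower in Kas (20% of all probe sets). WRKY53 read 5.38, 5.55 and 5.42 in Kas shoots, against 3.33, 2.72 and 2.61 in Tsu shoots, higher in Kas (log2 difference 2.56 ± 0.21, adjusted p = 9.04e-09). WRKY6 read 5.24, 5.56 and 5.14 in Kas shoots, against 3.34, 3.37 and 3.55 in Tsu shoots, 3.71-fold higher (adjusted p = 1.25e-07). IAA29 read 2.79 to 3.09 in Kas shoots, against 6.07, 5.82 and 5.91 in Tsu shoots, lower in Kas (log2 difference -2.97 ± 0.21, adjusted p = 7.84e-10), with the Kas values near the lower quartile of the arrays. No array of one ecotype reached the other for any of the 3.

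WRKY47 (log2 difference 1.28), BZIP60 (0.75), NAC014 (0.64) and BZIP17 (0.38) were also higher in Kas shoots. BZIP34 (-1.44), BZIP61 (-1.22), bZIP52 (-0.83), WRKY42 (-0.72), WRKY20 (-0.42) and IAA18 (-0.38) were lower. bZIP44 was lower as well, with 5.11, 4.86 and 5.24 in Kas shoots, against 6.07, 6.17 and 5.95 in Tsu shoots. Leaving out 1 array ended the call of IAA18 (Tsu replicate 3 or Kas replicate 1, adjusted p 0.0869 to 0.1), WRKY20 (Tsu replicate 1, 0.0696) and BZIP17 (Tsu replicate 3, Kas replicates 1 or 3, 0.0975 to 0.108). The fit of only the arrays compared ended those of IAA18 (0.0655) and BZIP17 (0.058). STZ was 2.37 higher in Kas shoots, and the 25S ribosomal RNA control read 8.51 to 9.39 in Kas shoots and 5.21 to 5.94 in Tsu shoots. Their part in these differences was not tested.

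In roots on complete medium 4 of the 28 regulators differed, beside 9.86% of all probe sets. In Kas 2 were higher (3.42% of all probe sets) and 2 lower (6.44%). bZIP44 read 8.63, 8.21 and 8.44 in Kas roots, against 7.62, 7.95 and 7.98 in Tsu roots (log2 difference 0.58 ± 0.14, adjusted p = 0.0174). WRKY6 was higher in Kas by 0.48 (adjusted p = 0.0431), and WRKY20 (-0.54, adjusted p = 0.0483, and 0.0524 with the replicate block) and BZIP34 (-0.41, adjusted p = 0.0305) were lower in Kas. All 4 calls were lost without single arrays: WRKY6 in 5 of 6 cases (up to 0.22), WRKY20 in 5 (up to 0.158), BZIP34 in 4 (up to 0.126) and bZIP44 in 2 (Kas replicates 1 or 3, up to 0.102). The fit of only the arrays compared called none of the 28. Without the arrays between the ecotypes 1 array of each ecotype is left, and 8 regulators were called, among them bZIP44 and WRKY6 but not WRKY20 (-0.44, adjusted p = 0.26) or BZIP34 (-0.48, adjusted p = 0.126).

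Roots and shoots differed on complete medium for 13 regulators in Kas, beside 55.5% of all probe sets, and for 16 in Tsu, beside 56.8%. In Kas 9 were higher in roots (30.4% of all probe sets) and 4 lower (25.2%). In Tsu 12 were higher in roots (31.7%) and 4 lower (25.1%). Each of these shares of members lay near or below that of all probe sets, except the 12 of 28 higher in Tsu roots. Both ecotypes shared 10 of these calls in the same direction, 76.9% of the Kas calls and 62.5% of the Tsu calls. Of all probe sets, 9999 were shared in this way, 79.2% of the Kas calls and 77.5% of the Tsu calls.

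bZIP44 read 8.63, 8.21 and 8.44 in Kas roots, against 5.11, 4.86 and 5.24 in Kas shoots, 10.3-fold higher (adjusted p = 1.25e-18). In Tsu it read 7.62, 7.95 and 7.98 in roots, against 6.07, 6.17 and 5.95 in shoots, 3.45-fold higher (adjusted p = 9.75e-12). WRKY22 was higher in roots by a log2 difference of 2.47 in Kas and 2.13 in Tsu. BZIP53 (1.29 and 1.08), bZIP19 (0.96 and 1.40), WRKY6 (1.40 and 2.81), WRKY47 (0.83 and 2.46), BZIP28 (0.56 and 0.97) and bZIP58 (3.47 and 1.81) were higher in roots of Kas and of Tsu. The bZIP58 difference in Kas, against shoot values of 2.24 to 2.39, ran from 2.95 to 4.24 when 1 array was left out. These groups of roots and shoots did not overlap.

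IAA29 and BZIP34 were lower in roots of both ecotypes. IAA29 read 2.30, 2.88 and 2.95 in Tsu roots, against 6.07, 5.82 and 5.91 in Tsu shoots (log2 difference -3.22 ± 0.19, adjusted p = 1.08e-15), and its difference in Kas was -0.66 ± 0.19 (adjusted p = 0.00461). BZIP34 differed by -1.51 in Kas and -2.54 in Tsu. WRKY53 was higher in Tsu roots than in Tsu shoots by a log2 difference of 2.75 (adjusted p = 3.28e-13), while its Kas difference was not called. Whether the tissue differences differed between the ecotypes was not tested.

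**Figure D5:**
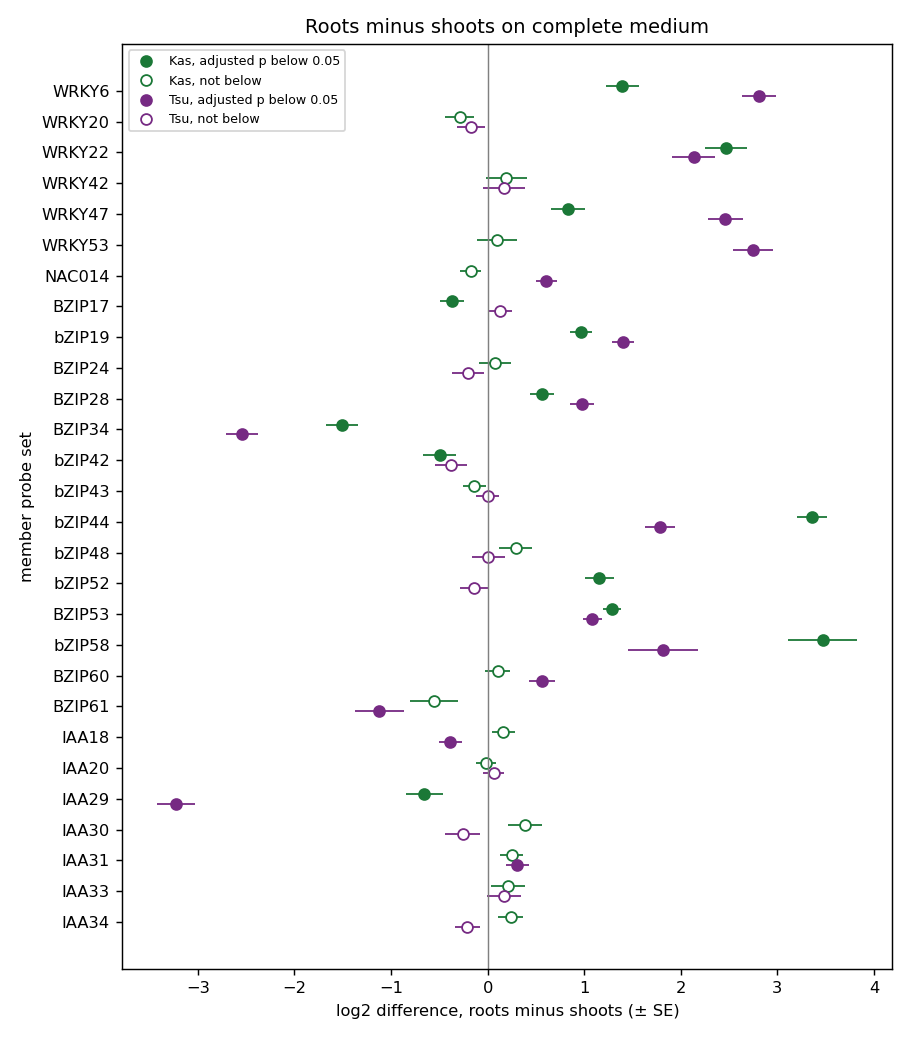
Log2 difference of roots minus shoots on complete medium (points, ± SE) for the 28 regulators, in Kas (green) and Tsu (purple), filled where the adjusted p was below 0.05. bZIP44 and bZIP58 lie furthest right in Kas, and IAA29 and BZIP34 furthest left in Tsu.

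The list of known iron regulators has 11 probe sets, including both of AT1G74770. It was made with earlier results of these data known, so it is no independent check. The shares of all probe sets called without iron, given above, are not split by direction. At least 1 of the 11 was called higher in every iron comparison except Kas roots at 24 h. There limma called 0 of 11, and 5 had an unadjusted p below 0.05. In Kas, 4 were called in roots at 48 h, 1 in shoots at 24 h and 2 in shoots at 48 h. In Tsu, 3 and 6 were called in roots and 4 and 3 in shoots at 24 h and 48 h, and none was called lower in any of the 8. The IRON MAN peptide gene AT1G47400, whose product promotes iron uptake, was 7.18-fold higher in Tsu roots at 48 h. In Kas roots it read 6.52, 6.58 and 6.97 at 48 h, against 2.85, 4.75 and 4.58 on complete medium. EIN3, the ethylene signalling gene, was called in none of the 8.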

How the data were processed

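The authors deposited 1 table of log2 expression values per probe set and array (22810 rows, 36 arrays). The log2 scale was read from the range of the values, 1.31 to 13.37. How the arrays were summarized and normalized is not given in the sources used here, and the table has no detection calls. The values were used as deposited, after leaving out 64 control probe sets. Samples were grouped by their titles. Replicates are separate arrays of a group, and nothing says that they came from separate plants, so p-values measure the spread between arrays, which may be technical. No 2 arrays were identical. The number of arrays limits the precision.

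Genes were named from GEO's platform annotation, given here for 14016 probe sets, of which 13513 had 1 gene; other probe sets are unnamed here. All 28 members carried the same symbol in RefSeq names, at 28 distinct loci. Each tissue was fitted with limma 3.58.1 (R 4.3.3) over its 6 groups, and comparisons of tissues over all 12 groups, with Benjamini-Hochberg adjustment over 22746 probe sets. The limma script was tested on simulated data. Differences are medium without iron minus complete medium, Kas minus Tsu, or roots minus shoots.

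Named genes were, per comparison and family, up to 4 called members with the largest rise and up to 4 with the largest fall, the member with the smallest p where none was called, the 3 members highest in each tissue, those differing most between tissues, and members of short gene lists. bZIP58 in Kas roots and WRKY20 were named after their values were seen. Members and lists were chosen with earlier results of these data known. The alternatives were a replicate block, other sets of arrays in the fit, a filter on dim probe sets (group means below 5), quantile normalization, a trended robust prior, the ecotype index as a covariate and leaving out each array. Leaving out the arrays between the ecotypes (index 0.25 to 0.75) was chosen after seeing the data.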

Additional observations from a re-analysis of the deposited data

Results flagged for a closer look

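The change without iron differed between the ecotypes for 23 results, each tested as the Kas change minus the Tsu change in limma over all probe sets. In roots at 24 h the difference was -0.91 for bZIP44 (adjusted p = 0.0121), -0.67 for BZIP53 (0.0237) and -1.02 for BZIP60 (0.0103). In roots at 48 h it was -0.84 for WRKY6 (0.0193), -2.31 for WRKY22 (0.0016), -1.18 for WRKY53 (0.012) and -2.22 for bZIP58 (0.0468).

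In shoots at 24 h it was 0.62 for IAA18 (0.0152), 2.36 for IAA29 (1.71e-05), -0.75 for NAC014 (0.00167), -1.22 for WRKY6 (0.00419) and -0.83 for WRKY47 (0.0344). At the same time it was -2.43 for WRKY53 (1.5e-05), 1.44 for BZIP34 (0.00112), 0.76 for bZIP52 (0.00792), -0.59 for BZIP60 (0.0256) and 1.51 for BZIP61 (0.00407). These 10 rest on the Tsu shoot arrays that lay between the ecotypes, and none passed the threshold with the ecotype index as a covariate. For IAA29, here and at 48 h, the Kas controls lay near the lower quartile of the arrays, which leaves little room to see a fall.

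In shoots at 48 h it was 1.49 for IAA29 (0.00737), -0.71 for NAC014 (0.0102), -1.31 for WRKY53 (0.0183), 1.05 for BZIP34 (0.0339), -0.86 for bZIP44 (0.0416) and 1.77 for BZIP61 (0.00468). Leaving out 1 array ended 8 of the 23, with the highest adjusted p at 0.0724 for BZIP53, 0.0528 for WRKY6 in roots, 0.121 for bZIP58, 0.0871 for WRKY47, 0.0725 for BZIP60 in shoots, 0.0511 for WRKY53 in shoots at 48 h, 0.0813 for BZIP34 at 48 h and 0.107 for bZIP44 in shoots. The other 15 stayed past the threshold without any 1 array. With the ecotype index as a covariate, WRKY53 (adjusted p = 0.131) and bZIP58 (0.0696) in roots at 48 h and BZIP34 in shoots at 48 h (0.0921) were lost as well. The fit of only the arrays compared lost BZIP53 in roots at 24 h (0.0631), and WRKY6 (0.0565) and bZIP58 (0.0928) in roots at 48 h. In shoots at 48 h that fit lost BZIP34 (0.0556) and bZIP44 (0.0677).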

How the results depend on the processing

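Each count of called regulators was recomputed under the alternatives. With all arrays in 1 fit, Kas roots at 24 h had 2 calls, Tsu roots at 24 h 5 and the root interaction at 24 h 5. With the ecotype index as a covariate, Kas roots at 48 h had 2, Tsu roots at 24 h 1, Tsu shoots at 24 h 0, the root interaction at 48 h 2 and the shoot interaction at 24 h 0. With only the arrays compared in the fit, Kas roots at 24 h had 0, Kas roots at 48 h 1, Tsu roots at 24 h 1, Tsu roots at 48 h 0, Tsu shoots at 48 h 2, the root interaction at 48 h 2 and Kas minus Tsu in roots 0. This fit has fewer arrays to estimate the spread. Kas shoots at 24 h kept a count of 1 in it, but WRKY6 was lost (adjusted p = 0.0634) and BZIP61 was called higher (0.018). Quantile normalization left 0 calls in Kas shoots at 24 h, and leaving out dim probe sets gave 1 in Kas shoots at 48 h. It gave 8 in Tsu shoots at 24 h, where the filter took out WRKY42, WRKY47 and bZIP52. Without the arrays between the ecotypes, Kas roots at 24 h had 2, Tsu roots at 48 h 2 and Kas minus Tsu in roots 8, each with 1 complete-medium root array left per ecotype, assumed to vary like the other groups. That setting gives no value for Tsu roots or Tsu shoots at 24 h, or for the interactions at 24 h. The covariate was not run where ecotypes or tissues were compared.

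Leaving out 1 array gave 0 to 3 calls in Kas roots at 24 h, 0 to 7 at 48 h, 1 to 4 in Tsu roots at 24 h and 1 to 1 at 48 h. It gave 0 to 1 in Kas shoots at 24 h, 0 to 0 at 48 h, 9 to 11 in Tsu shoots at 24 h and 2 to 7 at 48 h. The interactions ranged from 2 to 7 in roots at both times, 8 to 10 in shoots at 24 h and 3 to 8 at 48 h. Kas minus Tsu gave 0 to 8 in roots and 12 to 15 in shoots, and roots minus shoots 11 to 15 in Kas and 15 to 16 in Tsu.

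With the covariate 5 single results changed sign, and none of the 5 stayed past the threshold. The cause was not tested. They were IAA29 (0.0191), WRKY47 (-0.85) and BZIP28 (-0.57) in Tsu shoots at 24 h, and the shoot interactions at 24 h of WRKY6 (1.86) and WRKY47 (0.81). Fitted values with the covariate are imprecise in shoots at 24 h, because the index varied little within groups. For the 96 called single-gene results, 8 settings gave 653 values, of which 577 kept their side of the threshold. A further 71 lost it with the same sign, and the 5 named above lost it and changed sign. Same-numbered replicates did not pair in any of the 12 comparisons checked (correlations of deviations -0.39 to 0.14). With the replicate block, Kas roots had 1 and 4 calls, Tsu roots 3 and 1, Kas shoots 1 and 0, and Tsu shoots 11 and 4, at 24 h and 48 h. The block ended the calls of BZIP61 in Kas roots at 48 h (adjusted p = 0.0625), NAC014 in Tsu shoots at 48 h (0.0555) and WRKY20 between ecotypes in roots (0.0524), and added WRKY22 in Kas roots at 48 h (0.0324) and in the root interaction at 24 h (0.0407), and bZIP58 between ecotypes in shoots (0.0381). Quantile normalization moved the median of all probe sets by at most 0.08.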
